A study of Homo sapiens with 66 samples.

Results

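The 44 genes described here encode the proteins that license replication origins and build and run the replication fork, and they were followed in 11 acute myeloid leukaemia (AML) cell lines before and after etoposide. They were chosen by gene symbol, with earlier results of these data known. All 44 were found among the 57992 gene identifiers of the count files. Etoposide poisons topoisomerase II and leaves DNA double-strand breaks. The lines, with the hyphens that the labels leave out, were MOLM-13, OCI-AML3, MV-4-11, F-36P, NB-4, THP-1, KASUMI-1, HL-60, NOMO-1, MONO-MAC-6 and OCI-AML2. Each line was kept in medium alone, called untreated, or in etoposide at the IC50 of that line, both for 24 h, so the doses differ between lines. Each group had 3 biological replicates, and each library held the pooled RNA of cells from 3 wells. Each line is 1 established culture and stands for itself, not for a subtype of AML. The questions were how the replication genes changed in each line and in which lines they rose or fell.

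An origin is marked by the origin recognition complex, ORC1 to ORC6. CDC6 and CDT1 then load the ring of MCM2 to MCM7 onto DNA, which licenses the origin, and geminin, the product of GMNN, blocks CDT1 once S phase has begun. The kinase CDC7 with its activator DBF4 starts the helicase together with CDC45 and the GINS proteins. Primase and polymerase alpha lay down primers, the RFC complex loads the sliding clamp PCNA, polymerases delta and epsilon copy the strands, FEN1 and LIG1 join the lagging strand and RPA covers single strands. Many of these genes are known targets of E2F factors and are transcribed around the G1 to S transition.

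Libraries held from 17997404 to 24101670 reads that fell on genes. All 44 genes passed the filter on low counts in every line. Levels are given as CPM (reads of a gene relative to the scaled library total), and for the cell type markers the total was not scaled. F-36P carried erythroid markers, with all 6 of 6 at 1 CPM or more. Their summed level was 6330 to 7770 CPM in untreated libraries, against 198 to 1080 CPM in the other lines. Of the 9 myeloid markers, 8 or 9 reached 1 CPM in each untreated line other than F-36P, where 6 did and FLT3 was at 0. The T cell markers were all 3 present in NOMO-1, at a summed 169 to 196 CPM untreated and 238 to 255 CPM after etoposide, and reached at most 10.2 CPM elsewhere. Epithelial markers summed to 63.6 to 84.8 CPM in untreated KASUMI-1 and 21.9 to 30.6 CPM in untreated F-36P. They reached at most 16.9 CPM in the other lines. The B cell and fibroblast markers reached at most 16.9 and 11.3 CPM in any line. No 2 replicate libraries agreed within sampling noise, since the chi-square of their counts was at least 2.12 per degree of freedom. The widest gap was between untreated replicates 1 and 3 of F-36P, at 91.4. The study discarded the etoposide libraries of OCI-AML2 for the quality of their raw reads, so that line stands apart from the other 10 throughout. CDKN1A, the cyclin-dependent kinase inhibitor p21 and a target of p53, rose in all 10 lines, with log2 fold changes from 1.86 in MV-4-11 to 5.46 in OCI-AML3. Its levels were far apart, with means from 0.23 to 4.16 CPM in HL-60 and from 237 to 1940 CPM in MOLM-13.

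Etoposide moved the replication genes in opposite directions in different lines. In MOLM-13 nearly the whole set fell and in OCI-AML3 most of it did, whereas in MONO-MAC-6, NOMO-1, HL-60 and KASUMI-1 most of the set rose. In F-36P, MV-4-11 and NB-4 the set was split between genes that rose and genes that fell, and in THP-1 33 of 44 genes did not pass the test. All genes tested were also split in F-36P, MV-4-11 and NB-4, with the shares given below. A gene is said here to have risen or fallen when the quasi-likelihood test of edgeR, run in that line, gave an adjusted p (FDR) below 0.05 over all genes tested. In bulk RNA, fewer cycling cells and less RNA of a gene per cell cannot be told apart.

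In MOLM-13, 43 of 44 genes fell and 0 rose, where 28.1% of the 13710 genes tested fell and 28.1% rose. The median log2 fold change of the set was -0.92, against -0.0040 over all genes. Of the 43, 17 fell by more than 2-fold, a call made for 3.37% of all genes, and 0 rose by more than 2-fold, against 8.59%. ORC4 was the exception, at -0.36 with an adjusted p of 0.0549. In OCI-AML3, 26 genes fell and 2 rose, GINS4 and PCNA, where 17.7% of all genes fell and 22.4% rose. The median was -0.27. None of the 44 changed by more than 2-fold, where 7.18% of all genes rose and 1.36% fell by that much. Without untreated replicate 1 of OCI-AML3, 14 genes passed as lower in place of 26, and without etoposide replicate 3, 4 passed as higher in place of 2.

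In MONO-MAC-6, 34 genes rose and 6 fell, where 31.8% of all genes rose and 30.5% fell. The 6 were ORC2, ORC4, ORC5, MCM2, DBF4 and POLD2, named after their values were seen. The median was 0.40. In NOMO-1, 31 genes rose and 3 fell, ORC2, ORC4 and POLD2, against 28.8% and 23.9% of all genes, with a median of 0.35. In HL-60, 28 rose and 2 fell, ORC4 and DBF4, against 17.5% and 15.0% of all genes, with a median of 0.33. Without untreated replicate 3 of HL-60, 18 rose in place of 28, and each library left out in turn other than etoposide replicate 1 left 1 gene lower in place of 2. In KASUMI-1, 24 rose and 4 fell, MCM3, ORC5, POLA1 and POLD2, against 31.5% and 28.6% of all genes, with a median of 0.27. The rises passed 2-fold for 5 genes in KASUMI-1, 4 in NOMO-1, 2 in MONO-MAC-6 and 1 in HL-60, where 14.6%, 8.34%, 8.53% and 5.34% of all genes rose by more than 2-fold. A fall by more than 2-fold was found for 1 gene, POLD2, in KASUMI-1, against 6.52% of all genes, and for 0 genes in NOMO-1, MONO-MAC-6 and HL-60, against 4.43%, 4.47% and 1.24%.

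In MV-4-11, 15 genes rose and 18 fell, against 33.5% and 30.4% of all genes, and the median was -0.030, which became 0.099 with 19 rising and 12 falling when libraries were scaled by their totals alone. In NB-4, 18 rose and 10 fell, against 31.0% and 28.7% of all genes, with a median of 0.050. Libraries of NB-4 with the same replicate number deviated together, and with the replicate as a block 19 rose and 15 fell. Scaled by totals alone, 24 rose and 4 fell in NB-4, and leaving out etoposide replicate 2, etoposide replicate 3 or untreated replicate 1 left 6, 5 and 5 that fell. In F-36P, 8 rose and 12 fell, against 35.0% and 25% of all genes, with a median of 0.013. The split in F-36P was 5 and 15 with the size factors of DESeq2 and 16 and 7 with totals alone, and 5, 4, 5 and 3 rose without etoposide replicate 1, 2 or 3 or untreated replicate 2. The median of F-36P was -0.15 without untreated replicate 1 and -0.11 without untreated replicate 3. In THP-1, 8 genes rose and 3 fell, DBF4, ORC4 and RFC4, against 16.1% and 16.0% of all genes, with a median of 0.12. Without etoposide replicate 2 of THP-1, 21 genes rose in place of 8. The 3 that fell in THP-1 became 0 with the size factors of DESeq2, with totals alone or without any 1 of etoposide replicate 3 and the untreated replicates.

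In these last 4 lines no gene of the set passed 2-fold. The shares of all genes that rose by more than 2-fold were 12.5% in MV-4-11, 13.2% in NB-4, 24.3% in F-36P and 6.38% in THP-1, and the shares that fell were 2.63%, 4.82%, 6.67% and 3.46%.

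Scaling by totals alone raised the median of all genes by 0.25 in F-36P, 0.21 in NB-4, 0.17 in KASUMI-1, 0.13 in MV-4-11, 0.12 in MONO-MAC-6 and 0.10 in HL-60 on the log2 scale. Relative to all genes under that scaling, the median of the set stood at -0.92 in MOLM-13, -0.28 in OCI-AML3, 0.38 in MONO-MAC-6, 0.34 in HL-60, 0.31 in NOMO-1 and 0.24 in KASUMI-1. It stood at -0.075 in F-36P, -0.043 in MV-4-11, 0.042 in NB-4 and 0.16 in THP-1.

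The single libraries of the lines at both ends kept apart from their controls. For every gene the log2 CPM of a library was set against the mean of the untreated libraries of its line, and the median over the 44 genes was taken. The 3 etoposide libraries of MOLM-13 stood at -0.96, -0.86 and -0.94, with 0 of 44 genes above the untreated mean in each. Those of OCI-AML3 stood at -0.30, -0.23 and -0.37. Both lines had no overlap with their untreated libraries. The etoposide libraries of MONO-MAC-6 stood at 0.44, 0.35 and 0.41, those of NOMO-1 at 0.37, 0.42 and 0.40, those of HL-60 at 0.31, 0.30 and 0.47, and those of KASUMI-1 at 0.25, 0.36 and 0.29. All 12 lay above every untreated library of their line. In THP-1 the values were 0.13, 0.036 and 0.17, of which all 3 lay above the highest untreated library, at 0.025. The 3 libraries of F-36P, at 0.037, 0.033 and -0.11, those of MV-4-11, at -0.028, -0.083 and -0.012, and those of NB-4, at 0.11, 0.063 and 0.010, overlapped with their untreated libraries.

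**Figure D1:**
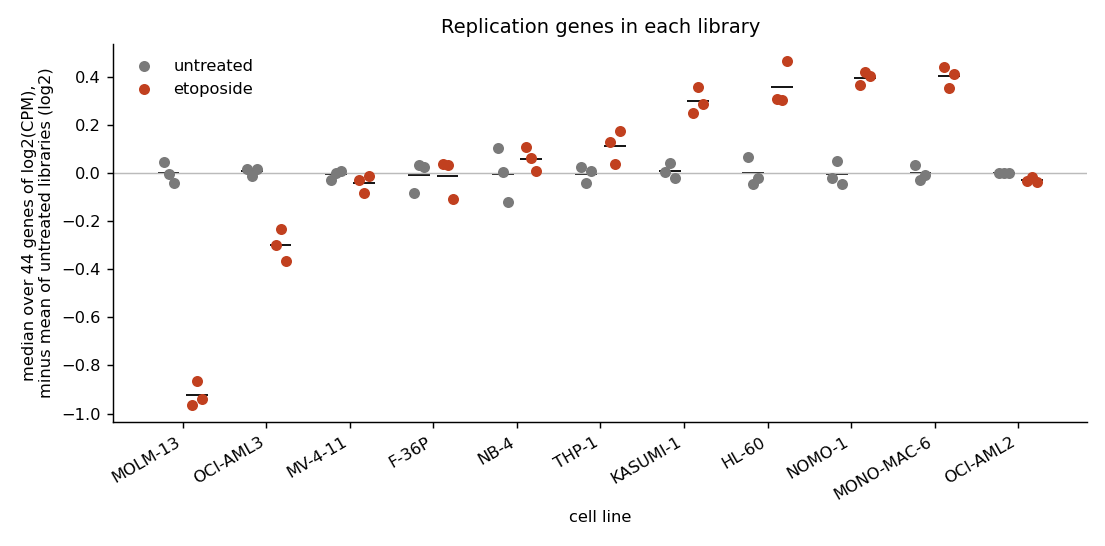
Median over the 44 replication genes in each library (vertical axis, log2 CPM minus the mean of the untreated libraries of that line), by cell line (horizontal axis), with grey points for untreated and red points for etoposide libraries and a bar for the mean of 3. The red points lie near -0.92 in MOLM-13 and between 0.25 and 0.47 in KASUMI-1, HL-60, NOMO-1 and MONO-MAC-6.

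The lines differed in their response for every one of the genes. In 1 fit of the 60 libraries of the 10 lines, the interaction of line and treatment passed for 44 of 44 genes, where it passed for 74.5% of the 19974 genes tested. The largest F was that of ORC1, 70.1 with 9 degrees of freedom (adjusted p = 2.17e-23), and the largest adjusted p was 0.00894, for ORC4. Averaged over the 10 lines, 23 genes rose and 14 fell, against 31.7% and 24.1% of all genes. This test sets the mean against the spread between libraries, not between lines, so it speaks of these 10 lines only. Of the 44 genes, 38 rose in at least 1 line and fell in at least 1 other. The remaining 6, ORC2, ORC4, ORC5, MCM6, DBF4 and POLD2, rose in no line, and no gene fell in none, since 43 of them fell in MOLM-13 and ORC4 fell in 5 other lines. These counts over lines were not made for all genes, so they do not mark the set.

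Against the mean of the other 9 lines, the response of MOLM-13 was lower for 40 genes and higher for 0, where 12.6% of all genes were lower and 12.4% higher. OCI-AML3 was lower for 26 genes and higher for 2, against 9.81% and 6.73%. HL-60 was higher for 28 genes and lower for 0, against 9.52% and 7.55%, MONO-MAC-6 higher for 27 and lower for 0, against 4.71% and 11.1%, and NOMO-1 higher for 27 and lower for 0, against 8.74% and 15.1%. Without replicate 3 of every group, 15 genes were higher in HL-60. KASUMI-1 was higher for 24 genes and lower for 2, against 15.3% and 14.6%, and higher for 14 without replicate 3. THP-1 was higher for 14 and lower for 3, against 11% and 14.2%, and higher for 7 without replicate 2. F-36P was lower for 15 and higher for 2, against 17.6% and 15.9%. NB-4 was higher for 8 and lower for 2, against 10.5% and 9.05%, and MV-4-11 was lower for 7 and higher for 1, against 5.45% and 7.75%. NB-4 had 4 or 5 higher genes, and MV-4-11 had 1 lower gene without replicate 2 or 3.

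**Figure D2:**
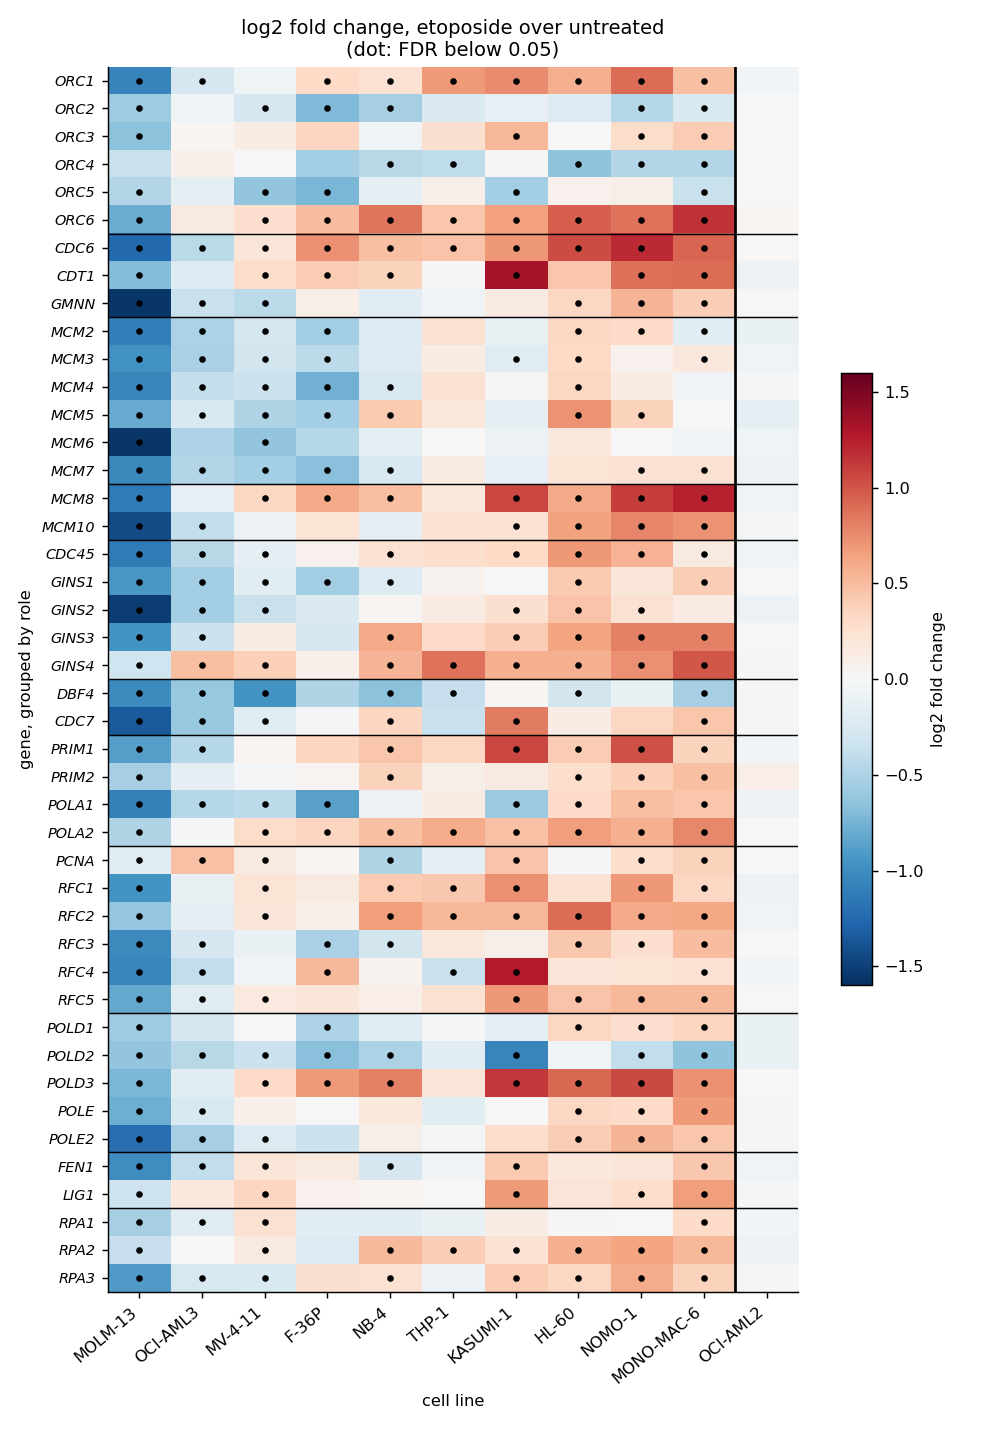
Log2 fold change (colour, etoposide over untreated) of the 44 genes (rows, grouped by role) in each line (columns, in order of the median of the set), with a dot where the adjusted p was below 0.05; OCI-AML2 stands right of the thick line. MOLM-13 is blue throughout, from -1.56 for GMNN to -0.19 for PCNA, and the rows of POLD2, DBF4 and ORC2 are blue or pale in lines where their neighbours are red.

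Among the 6 subunits of the origin recognition complex, ORC1 and ORC6 rose in 7 and 8 of the 10 lines, while ORC2, ORC4 and ORC5 rose in none and fell in 6, 5 and 5. ORC3 rose in 3 lines and fell in MOLM-13. ORC1 binds origins with ATP and is removed from chromatin as S phase proceeds. Its lowest change was in MOLM-13, where it went from 87, 88.3 and 83.4 CPM untreated to 39.1, 45.1 and 39.2 CPM after etoposide, a log2 fold change of -1.07 ± 0.079 (SE, adjusted p = 4e-06). Its highest was in NOMO-1, from 94.3, 104 and 89.6 CPM untreated to 184, 183 and 170 CPM after etoposide (0.90 ± 0.086, adjusted p = 5.58e-06). In both lines the 3 etoposide libraries lay wholly outside the range of the untreated ones.

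ORC6, the smallest subunit, rose in every line other than MOLM-13, where it fell, and OCI-AML3, where it did not pass. In MONO-MAC-6 it went from 19, 18.3 and 18.1 CPM untreated to 42.4, 40.8 and 39.8 CPM after etoposide (1.15 ± 0.065, adjusted p = 4.16e-08), its largest rise. In HL-60 its values were 52.3, 48.2 and 51.4 CPM untreated and 94.4, 85.5 and 114 CPM after etoposide. NOMO-1 had 44.3, 43.4 and 42.2 CPM untreated and 82.3, 78.8 and 75.3 CPM after etoposide. These 3 lines showed rises of 2.22-fold, 1.94-fold and 1.82-fold with no overlap. NB-4, in which no other gene of the set rose as much, went from 49.3, 46.3 and 49.7 CPM untreated to 90.5, 83.5 and 88 CPM after etoposide (0.85). KASUMI-1 went from 56.1, 53 and 56.2 CPM untreated to 89.1, 85.4 and 86.2 CPM after etoposide (0.66). F-36P went from 59.3, 66.4 and 57.3 CPM untreated to 92.1, 87.8 and 77.7 CPM after etoposide (0.49). Smaller rises were seen in the next 2 lines. THP-1 had 34.9, 35 and 38.3 CPM untreated and 53.9, 42.4 and 50.9 CPM after etoposide (0.44, adjusted p = 0.0157), a call lost without etoposide replicate 1 or untreated replicate 1 or 2. MV-4-11 had 55.9, 54.1 and 55.2 CPM untreated and 67.6, 63.2 and 67.8 CPM after etoposide (0.27). In OCI-AML3, with 41.4, 37.4 and 43.3 CPM untreated and 49.2, 48.3 and 37.4 CPM after etoposide, the groups overlapped (adjusted p = 0.356). MOLM-13 fell from 43.4, 41.2 and 41.3 CPM untreated to 24.9, 25.3 and 22.1 CPM after etoposide (-0.80).

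ORC2, a core subunit, fell in 6 of 10 lines and had a negative log2 fold change in all 10. The largest fall was in F-36P, from 69.8, 80.3 and 88.9 CPM untreated to 51.4, 45.6 and 49.8 CPM after etoposide (-0.70 ± 0.13, adjusted p = 0.000826). MOLM-13 fell from 54.6, 52 and 52.5 CPM untreated to 38.1, 34.3 and 35 CPM after etoposide (-0.57). NB-4 fell from 63.4, 64.1 and 69.1 CPM untreated to 50.6, 42 and 43.5 CPM after etoposide (-0.53). Falls were also found in 3 lines in which most of the set rose or was split. NOMO-1 fell from 58.6, 54.7 and 50.2 CPM untreated to 36.1, 37.2 and 46 CPM after etoposide (-0.46). MV-4-11 fell from 44, 45.1 and 44.8 CPM untreated to 39.6, 36.2 and 35 CPM after etoposide (-0.27). MONO-MAC-6 fell from 67.8, 64.5 and 61.9 CPM untreated to 57.5, 51.9 and 54.4 CPM after etoposide (-0.25). With totals alone, the last 2 no longer passed, at -0.14 and -0.13. The other 4 lines did not pass. THP-1 had 30.7, 32.4 and 30.1 CPM untreated and 29.4, 22.8 and 27 CPM after etoposide. HL-60 had 73.1, 67.1 and 69.5 CPM untreated and 65.4, 60.3 and 55.4 CPM after etoposide. In KASUMI-1 ORC2 stood at 66.2, 63.5 and 63.3 CPM untreated and 60.7, 55 and 59.7 CPM after etoposide. The groups did not overlap in these 3 lines, whose adjusted p-values were 0.2, 0.107 and 0.167. OCI-AML3, with 45, 40 and 44.4 CPM untreated and 44, 40.1 and 39.8 CPM after etoposide, showed overlap.

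ORC4, another core subunit, fell in 5 lines, and MOLM-13 was not among them. HL-60 had its largest fall, from 42.5, 42.1 and 39.2 CPM untreated to 28, 28.8 and 22.2 CPM after etoposide (-0.65 ± 0.12, adjusted p = 0.000949). NOMO-1 fell from 44.3, 38.8 and 38.5 CPM untreated to 25.1, 29.6 and 32.8 CPM after etoposide (-0.47). MONO-MAC-6 fell from 42.8, 33.9 and 34.5 CPM untreated to 26.9, 25.8 and 28 CPM after etoposide (-0.46). ORC4 was the largest fall of the set in HL-60, NOMO-1 and THP-1. NB-4 fell from 47.2, 42 and 48 CPM untreated to 36.3, 31.7 and 33.2 CPM after etoposide (-0.44), a call lost with totals alone. THP-1 fell from 31.2, 33.3 and 25.8 CPM untreated to 25.8, 18.4 and 23.7 CPM after etoposide (-0.41, adjusted p = 0.0473), a call that was lost with the size factors of DESeq2, among other settings. The remaining 5 did not pass. MOLM-13 had 27.7, 27.8 and 30.5 CPM untreated and 27.8, 17.4 and 22 CPM after etoposide, where etoposide replicate 1 lay within the untreated range. Without that library the call was made, at -0.53, as it was with DESeq2, the exact test of edgeR, the replicate as a block or no filter. F-36P had 25.8, 37.5 and 51.4 CPM untreated and 27.8, 28.2 and 23.1 CPM after etoposide, with a wide untreated range. A fall was called in F-36P without untreated replicate 1 or 3, with the size factors of DESeq2, with DESeq2, with the exact test of edgeR, without a filter and in 1 fit of the 10 lines. MV-4-11 had 24.7, 27.4 and 27.7 CPM untreated and 28.5, 25.4 and 26.5 CPM after etoposide. KASUMI-1 had 37.4, 35.9 and 28.3 CPM untreated and 36.5, 32 and 34.9 CPM after etoposide. OCI-AML3 had 22.4, 21.4 and 25.1 CPM untreated and 27.6, 27.6 and 17.9 CPM after etoposide. The groups overlapped in all 5.

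CDC6 and CDT1, the loaders of the MCM ring, rose in more lines than the ring they load. CDC6 rose in 8 lines and fell in MOLM-13 and OCI-AML3. Its highest value was in NOMO-1, from 116, 133 and 121 CPM untreated to 295, 290 and 266 CPM after etoposide (1.20 ± 0.085, adjusted p = 6.37e-07). HL-60 went from 133, 108 and 117 CPM untreated to 237, 194 and 304 CPM after etoposide (1.04). CDC6 was the largest rise of the set in NOMO-1, HL-60 and F-36P. MONO-MAC-6 went from 91.7, 80.6 and 86.1 CPM untreated to 174, 155 and 165 CPM after etoposide (0.93). F-36P went from 41.8, 51.3 and 58.4 CPM untreated to 93.4, 83.7 and 73.7 CPM after etoposide (0.73). KASUMI-1 went from 75.1, 75.1 and 75.5 CPM untreated to 121, 124 and 121 CPM after etoposide (0.70). No etoposide library of these lines overlapped with an untreated one. NB-4 went from 97.8, 83.6 and 74 CPM untreated to 127, 116 and 114 CPM after etoposide (0.49). THP-1 went from 110, 97.7 and 104 CPM untreated to 146, 134 and 147 CPM after etoposide (0.46). MV-4-11 went from 140, 141 and 146 CPM untreated to 162, 157 and 169 CPM after etoposide (0.19), the smallest rise, which did not pass in 1 fit of the 10 lines. In the lines in which the set fell, CDC6 fell as well. OCI-AML3 fell from 103, 94.2 and 113 CPM untreated to 79.9, 86.2 and 63.2 CPM after etoposide (-0.44, adjusted p = 0.0198), a call lost without untreated replicate 1. MOLM-13 fell from 119, 108 and 115 CPM untreated to 51.2, 46.1 and 46.7 CPM after etoposide (-1.25 ± 0.075, adjusted p = 1.41e-06).

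CDT1 rose in 6 lines and fell in MOLM-13. KASUMI-1 had its highest change, and the largest rise of any gene of the set in any line, from 86.4, 105 and 109 CPM untreated to 192, 293 and 261 CPM after etoposide (1.31 ± 0.15, adjusted p = 6.13e-05). MOLM-13 had the lowest, from 85.8, 88.9 and 82.8 CPM untreated to 40.6, 63.1 and 55.8 CPM after etoposide (-0.69 ± 0.13, adjusted p = 0.00145). The groups did not overlap in either line. GMNN, which encodes the inhibitor of CDT1, rose in 3 lines and fell in 3. MOLM-13 had the largest fall of any gene in any line, from 119, 120 and 121 CPM untreated to 42.9, 39.7 and 39.8 CPM after etoposide (-1.56 ± 0.068, adjusted p = 4.57e-07). NOMO-1 had the highest change, from 108, 101 and 101 CPM untreated to 133, 164 and 156 CPM after etoposide (0.55 ± 0.093, adjusted p = 0.000379). In MV-4-11 CDC6 and CDT1 rose, at 0.19 and 0.29, while GMNN fell, at -0.43.

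**Figure D3:**
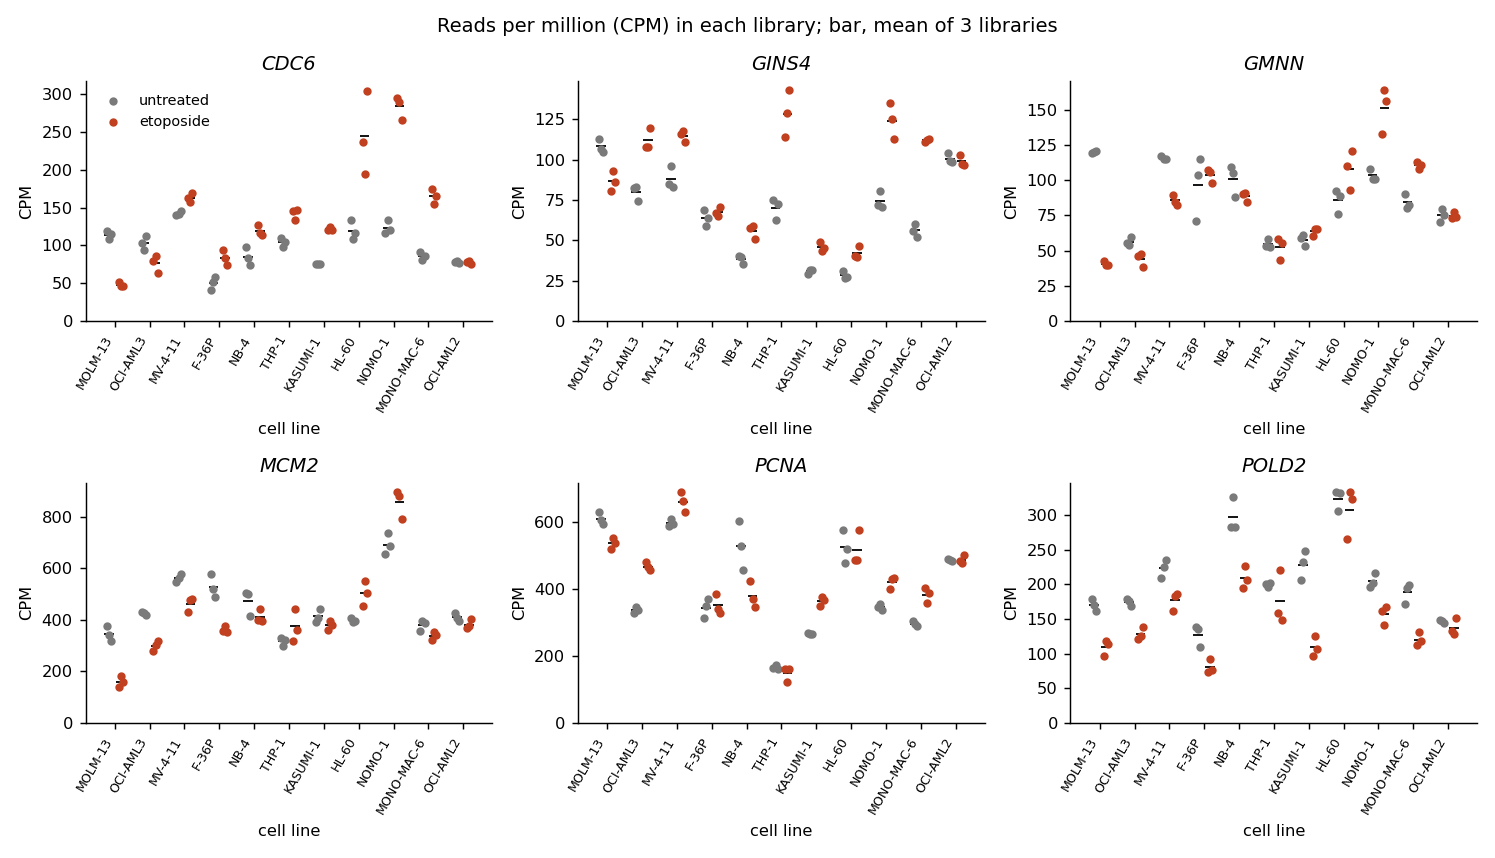
CPM, scaled within each line, of CDC6, GINS4, GMNN, MCM2, PCNA and POLD2 in each library (vertical axis), by line (horizontal axis, in order of the median of the set), with grey for untreated and red for etoposide and a bar for the mean of 3. CDC6 lies higher after etoposide in 8 lines, POLD2 lower in 8, and GMNN in MOLM-13 lies between 119 and 121 CPM before and between 39.7 and 42.9 CPM after it.

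Each of the 6 genes of the MCM2-7 ring fell in more lines than it rose in. The whole ring fell in MOLM-13 and MV-4-11, with medians of -1.03 and -0.41, and 5 of 6 fell in OCI-AML3 and F-36P, with medians of -0.48 and -0.54. HL-60 was the line with the most rises, 4 of 6, and a median of 0.33. In NOMO-1 3 rose, with a median of 0.17, and in MONO-MAC-6 2 rose and 1 fell, with a median of -0.024. In KASUMI-1 1 fell and 0 rose (median -0.13), in NB-4 1 rose and 2 fell (-0.21), and in THP-1 none passed (0.16). MCM2 had its lowest change in MOLM-13, from 375, 340 and 318 CPM untreated to 141, 182 and 158 CPM after etoposide (-1.11 ± 0.099, adjusted p = 1.12e-05). Its highest was in HL-60, from 408, 391 and 394 CPM untreated to 452, 551 and 503 CPM after etoposide (0.34 ± 0.089, adjusted p = 0.0111), a call lost without untreated replicate 3. The libraries did not overlap in either line. MCM5 was lowest in MOLM-13, from 329, 316 and 298 CPM untreated to 156, 199 and 183 CPM after etoposide (-0.81 ± 0.090, adjusted p = 4.37e-05). It was highest in HL-60, from 329, 312 and 314 CPM untreated to 458, 547 and 563 CPM after etoposide (0.72 ± 0.093, adjusted p = 0.000108). MCM5 was the only one of the 6 that rose in NB-4, at 0.42. MCM6 rose in no line, from -1.56 in MOLM-13 to 0.17 in HL-60.

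The medians of the ring and of the group of its loaders and their inhibitor geminin lay apart in several lines. This is a description with no test between gene groups. In F-36P the ring had a median of -0.54 and the group of CDC6, CDT1 and GMNN one of 0.40. In MONO-MAC-6 the medians were -0.024 and 0.89, in KASUMI-1 -0.13 and 0.70, in MV-4-11 -0.41 and 0.19, and in NOMO-1 0.17 and 0.88. In MOLM-13 and THP-1 the order was turned, with medians of -1.03 and 0.16 for the ring against -1.25 and 0.020. The loaders CDC6 and CDT1 stood at -1.25 and -0.69 in MOLM-13 and GMNN at -1.56, and CDC6 stood at 0.46 in THP-1. In OCI-AML3 the medians were -0.48 and -0.36. MCM8, a helicase of homologous recombination that lies outside the ring, rose in 7 lines and fell in MOLM-13. In MONO-MAC-6 MCM8 was the largest rise of the set, from 65.3, 54.8 and 57.3 CPM untreated to 144, 128 and 143 CPM after etoposide (1.23 ± 0.072, adjusted p = 5.59e-08), with no overlap. MCM10, which helps to activate the helicase, rose in 4 lines and fell in 2, from -1.43 in MOLM-13 to 0.79 in NOMO-1.

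**Figure D4:**
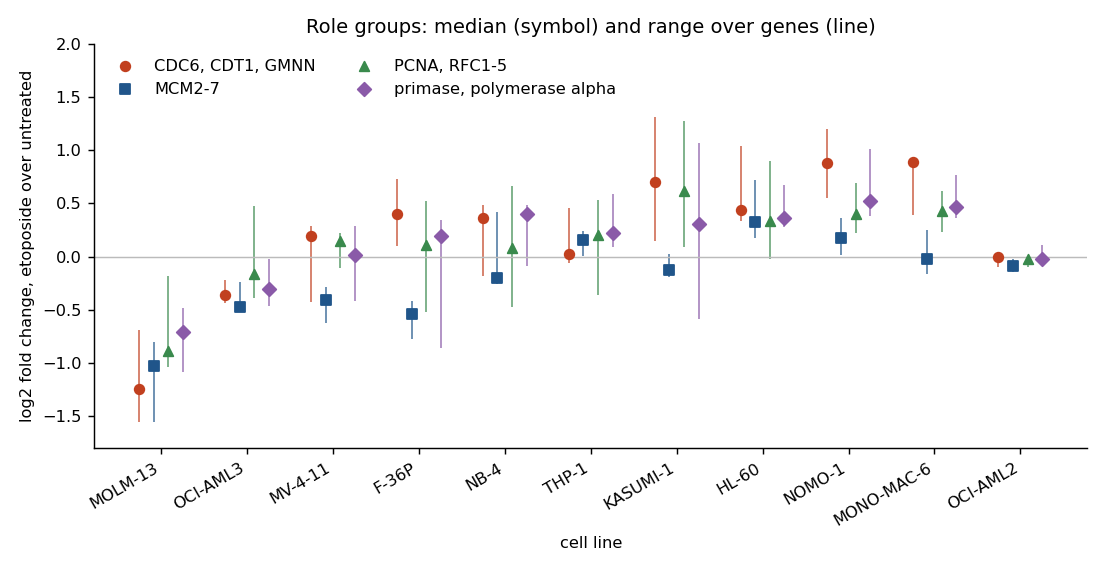
Median log2 fold change (symbols) and range over genes (thin lines) of 4 role groups by cell line; the vertical axis is etoposide over untreated. The blue squares of MCM2-7 lie below the red circles of CDC6, CDT1 and GMNN in F-36P, MV-4-11, NB-4, KASUMI-1, HL-60, NOMO-1, MONO-MAC-6 and OCI-AML3, and above them in MOLM-13 and THP-1.

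CDC45 and the 4 GINS genes encode the parts that join the ring to form the active helicase. All 5 fell in MOLM-13, with a median of -0.95, and all 5 rose in HL-60, with a median of 0.57. Of the 5, 4 rose in KASUMI-1, MONO-MAC-6 and NOMO-1, with medians of 0.32, 0.39 and 0.56. Of all genes, 28.1% fell in MOLM-13, and 17.5%, 31.5%, 31.8% and 28.8% rose in HL-60, KASUMI-1, MONO-MAC-6 and NOMO-1. GINS4 parted from its partners, with rises in 8 lines. THP-1, in which GINS4 was the largest rise of the set, went from 74.9, 62.6 and 72.7 CPM untreated to 114, 129 and 143 CPM after etoposide (0.87 ± 0.13, adjusted p = 5.59e-05). MONO-MAC-6 went from 56, 60.3 and 52.3 CPM untreated to 111, 112 and 113 CPM after etoposide (1.00). NOMO-1 went from 72.2, 80.5 and 70.5 CPM untreated to 135, 125 and 113 CPM after etoposide (0.74). In all 3 the groups were apart. OCI-AML3 went from 82.8, 83 and 74.4 CPM untreated to 108, 108 and 120 CPM after etoposide (0.49 ± 0.077, adjusted p = 0.0015), while GINS1, GINS2, GINS3 and CDC45 all fell there. MV-4-11 went from 85.3, 96.1 and 83.2 CPM untreated to 116, 118 and 111 CPM after etoposide (0.39), its largest rise of the set. NB-4 went from 40.1, 39.6 and 35.5 CPM untreated to 57.6, 59 and 50.8 CPM after etoposide (0.54). GINS4 thus rose in MV-4-11 and NB-4, lines with a split set. HL-60 went from 31, 26.6 and 27.5 CPM untreated to 40.4, 39.5 and 46.3 CPM after etoposide (0.57). KASUMI-1 went from 29.3, 31.9 and 31.6 CPM untreated to 48.8, 43.5 and 45.1 CPM after etoposide (0.57). F-36P, with 69.2, 59.2 and 64.1 CPM untreated and 67.1, 65 and 70.7 CPM after etoposide, did not pass. The fall of GINS4 in MOLM-13, from 113, 107 and 105 CPM untreated to 80.7, 93.1 and 86 CPM after etoposide (-0.32 ± 0.074, adjusted p = 0.00392), was smaller than that of every other gene of the set but PCNA.

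DBF4, the activator of the CDC7 kinase, fell in 7 lines and rose in none. MOLM-13 fell from 58.4, 59.2 and 62.9 CPM untreated to 34.3, 25.8 and 29 CPM after etoposide (-1.02 ± 0.10, adjusted p = 2.22e-05). MV-4-11 fell from 83.7, 85.4 and 87.1 CPM untreated to 50, 42 and 39.5 CPM after etoposide (-0.96 ± 0.075, adjusted p = 3.32e-10). NB-4 fell from 67.4, 57 and 59.7 CPM untreated to 41.6, 38.7 and 36.4 CPM after etoposide (-0.66). DBF4 was the largest fall of the set in MV-4-11, NB-4 and OCI-AML3. OCI-AML3 fell from 41, 38.9 and 43.3 CPM untreated to 30.4, 30.8 and 19.7 CPM after etoposide (-0.61). MONO-MAC-6 fell from 101, 90.1 and 88.4 CPM untreated to 66.5, 62.4 and 65.3 CPM after etoposide (-0.53), against the direction of most of the set. THP-1 fell from 51, 51.7 and 50.3 CPM untreated to 42.4, 31.5 and 44 CPM after etoposide (-0.38, adjusted p = 0.0469). HL-60 fell from 67.1, 67.8 and 62.9 CPM untreated to 59.6, 51.2 and 50.6 CPM after etoposide (-0.30, adjusted p = 0.0338). The calls in THP-1 and HL-60 were lost with totals alone, and the call in THP-1 was lost without any 1 of its libraries and that in HL-60 without any 1 but etoposide replicate 1. F-36P had 43.2, 70.7 and 91.8 CPM untreated and 51.5, 44.5 and 51.5 CPM after etoposide, which passed as a fall without untreated replicate 1, with the size factors of DESeq2, with DESeq2, without a filter and in 1 fit of the 10 lines. NOMO-1 had 149, 119 and 125 CPM untreated and 94.4, 139 and 131 CPM after etoposide. KASUMI-1 had 47.1, 41.7 and 29.7 CPM untreated and 38.9, 37.1 and 44.7 CPM after etoposide. The groups overlapped in these 3 lines. CDC7 itself rose in 3 lines and fell in 3, from -1.35 in MOLM-13 to 0.83 in KASUMI-1.

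The 4 genes of primase and polymerase alpha all rose in HL-60, MONO-MAC-6 and NOMO-1 and all fell in MOLM-13. Of all genes, 17.5%, 31.8% and 28.8% rose in HL-60, MONO-MAC-6 and NOMO-1, and 28.1% fell in MOLM-13. POLA2, the accessory subunit of polymerase alpha, rose in 8 lines, with its largest change in MONO-MAC-6, from 71.7, 69.6 and 72.3 CPM untreated to 120, 121 and 122 CPM after etoposide (0.76 ± 0.047, adjusted p = 7.66e-08). HL-60 went from 93.3, 88.5 and 85.3 CPM untreated to 129, 135 and 161 CPM after etoposide (0.67). THP-1 went from 79.9, 66.5 and 70.8 CPM untreated to 102, 118 and 107 CPM after etoposide (0.59). The groups were apart in all 3. NOMO-1 went from 110, 127 and 114 CPM untreated to 187, 171 and 161 CPM after etoposide (0.57). NB-4 went from 109, 105 and 87.7 CPM untreated to 142, 144 and 135 CPM after etoposide (0.49). KASUMI-1 went from 66.4, 69.6 and 68 CPM untreated to 91.7, 100 and 90.9 CPM after etoposide (0.47). None of these etoposide libraries overlapped with the untreated ones. F-36P went from 93.5, 83.3 and 81.4 CPM untreated to 105, 107 and 115 CPM after etoposide (0.34, adjusted p = 0.0233), a call lost with the size factors of DESeq2, with DESeq2, with the replicate as a block, without a filter, and without etoposide replicate 2 or 3 or untreated replicate 2 or 3. MV-4-11 went from 128, 131 and 135 CPM untreated to 157, 160 and 164 CPM after etoposide (0.29). The 2 lines without a rise were those in which the set fell. OCI-AML3, with 100, 98.2 and 88.9 CPM untreated and 91.4, 93 and 98.6 CPM after etoposide, showed overlap. MOLM-13 fell from 85.6, 82.9 and 76.7 CPM untreated to 56.6, 61 and 57.6 CPM after etoposide (-0.49). POLA1, the catalytic subunit, rose in 3 lines and fell in 5. In F-36P POLA1 was the largest fall of the set, from 52, 80.8 and 105 CPM untreated to 47.6, 47.1 and 36.2 CPM after etoposide (-0.86 ± 0.23, adjusted p = 0.00791), with a wide untreated range. In KASUMI-1 POLA1 fell, at -0.58, while PRIM1, the small primase subunit, rose, at 1.07. PRIM1 rose in 5 lines and fell in 2, and PRIM2 rose in 4 and fell in 1.

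PCNA, the sliding clamp, had the narrowest fall of the set in MOLM-13, at -0.19, and its pattern over the lines was unlike that of the set. It rose in 5 lines and fell in 2. NB-4 had its lowest change, from 604, 529 and 456 CPM untreated to 424, 370 and 348 CPM after etoposide (-0.48 ± 0.11, adjusted p = 0.00117). OCI-AML3 had its highest, from 328, 347 and 337 CPM untreated to 480, 466 and 457 CPM after etoposide (0.47 ± 0.056, adjusted p = 0.000327). The groups were apart in both. Of its loaders, RFC2 rose in 7 lines and RFC1 in 6, each falling only in MOLM-13 among the 10 lines, RFC5 rose in 5 and fell in 2, RFC4 rose in 3 and fell in 3, and RFC3 rose in 3 and fell in 4. RFC4 reached 1.27 in KASUMI-1.

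POLD2, the accessory subunit of polymerase delta, fell in 8 lines, more than any other gene of the set, and rose in none. KASUMI-1 fell from 206, 232 and 248 CPM untreated to 96.1, 126 and 107 CPM after etoposide (-1.06 ± 0.11, adjusted p = 3.52e-05), the largest fall of the set there. F-36P fell from 138, 135 and 110 CPM untreated to 73.5, 91.8 and 75.7 CPM after etoposide (-0.67). MONO-MAC-6 fell from 172, 195 and 199 CPM untreated to 112, 131 and 118 CPM after etoposide (-0.65), again the largest fall of the line. These falls stood in lines in which the set rose or was split. MOLM-13 fell from 179, 171 and 161 CPM untreated to 96.8, 118 and 114 CPM after etoposide (-0.63). NB-4 fell from 283, 327 and 283 CPM untreated to 195, 226 and 207 CPM after etoposide (-0.51). OCI-AML3 fell from 179, 176 and 169 CPM untreated to 121, 125 and 138 CPM after etoposide (-0.45). All of these groups were apart. NOMO-1 fell from 197, 202 and 216 CPM untreated to 162, 141 and 167 CPM after etoposide (-0.39). MV-4-11 fell from 210, 225 and 235 CPM untreated to 161, 184 and 186 CPM after etoposide (-0.34). THP-1 had 200, 197 and 202 CPM untreated and 159, 221 and 149 CPM after etoposide, where etoposide replicate 2 lay above the untreated libraries and without it the fall passed, at -0.34. HL-60 had 333, 306 and 332 CPM untreated and 265, 334 and 324 CPM after etoposide and did not pass. POLD3, another subunit of the same polymerase, went the other way, with rises in 7 lines, 2 of them above 2-fold, and a fall in MOLM-13. In KASUMI-1 POLD3 rose, at 1.14, beside the fall of POLD2. POLD1, the catalytic subunit, rose in 3 and fell in 2, as did POLE, the catalytic subunit of polymerase epsilon, and POLE2 rose in 3 and fell in 3.

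FEN1, the flap nuclease, rose in 3 lines and fell in 3, and LIG1, the ligase of Okazaki fragments, rose in 4 and fell only in MOLM-13 among the 10 lines. RPA2 rose in 7 lines and fell in MOLM-13, RPA3 rose in 5 and fell in 3, and RPA1 rose in 2 and fell in 2. MCM7, PRIM1, POLD1, POLD3 and FEN1 share exon sequence on the same strand with another annotated gene, so reads there may have been left out or split. On the opposite strand, 14 genes of the set overlap an exon of another gene, among them ORC2, ORC4, GINS4, DBF4 and RFC4. Reads there may also have been left out if counting was not by strand, which was not settled.

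Across the 10 lines the genes followed one another, with a median pairwise Pearson r of 0.77 over 946 gene pairs, and of 0.56 over the 9 lines without MOLM-13. These are descriptions over 10 or 9 points, and genes of 1 line share libraries. Pairs of other genes were not set beside them. POLA2 had the highest r with the median of the other 43 genes over 10 lines, at 0.97, and POLE2 over the 9 without MOLM-13, at 0.94, where POLA2 stood at 0.93. The 5 lowest over 10 lines were ORC4, POLD2, ORC5, PCNA and ORC2, at -0.25, 0.11, 0.29, 0.29 and 0.30.

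The promoter windows of RefSeq (GRCh38.p14), from 250 bases before to 50 bases after each start, were searched for letters bound by E2F factors, because known E2F targets are frequent among these genes. An entry was found for 38 of the 44 genes. MCM4, MCM5, GINS4, RPA2, RPA3 and POLD3 have no entry. The letters TTTCGCGC, TTTGGCGC, TTTCCCGC or TTTGCCGC, on either strand, were in a window of 20 of 38 genes (52.6%), against 5.94% of the 13106 other genes tested in these lines. Counted by window, they were in 41.7% of the 48 windows of the set, against 3.31% of all 35116 windows. The letters TTTGAA, as in the CHR element of G2/M genes, were in 1 of 38 genes (2.6%) against 14.5% of the other genes tested. CCAAT was in 57.9% against 42.1%, and CACGTG in 18.4% against 11.8%. A match is a description of the letters and not of a bound site. The 250 bases before the start are shown for MCM6, a ring gene with 4 matches that rose in no line, and for CDT1 and PCNA, which have 1 match each and differ in their response. Matches are in capitals. In MCM6 they form a pair of stretches, in each of which a forward and a reverse match overlap.
MCM6, chr2:135876444-135876693, minus strand: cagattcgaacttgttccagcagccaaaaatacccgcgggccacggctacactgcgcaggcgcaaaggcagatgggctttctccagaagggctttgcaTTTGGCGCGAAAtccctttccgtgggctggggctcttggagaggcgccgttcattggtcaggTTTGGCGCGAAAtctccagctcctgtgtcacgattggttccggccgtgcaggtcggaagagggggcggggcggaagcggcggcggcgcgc
CDT1, chr16:88803539-88803788, plus strand: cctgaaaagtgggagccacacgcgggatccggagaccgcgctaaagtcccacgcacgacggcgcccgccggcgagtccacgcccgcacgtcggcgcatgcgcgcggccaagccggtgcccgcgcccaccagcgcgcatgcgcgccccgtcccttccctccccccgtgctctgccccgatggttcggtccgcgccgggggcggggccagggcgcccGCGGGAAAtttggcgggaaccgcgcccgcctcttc
PCNA, chr20:5126623-5126872, minus strand: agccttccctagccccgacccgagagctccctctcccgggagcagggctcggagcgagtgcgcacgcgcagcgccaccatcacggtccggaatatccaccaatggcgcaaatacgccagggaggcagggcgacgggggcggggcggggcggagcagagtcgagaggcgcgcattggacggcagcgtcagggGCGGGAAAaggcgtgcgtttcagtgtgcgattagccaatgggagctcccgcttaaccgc
The first bases of the matches lie 152, 148, 90 and 86 bases before the start in MCM6, 35 in CDT1 and 59 in PCNA. The 20 genes with a match and the 18 without had median log2 fold changes of -1.03 and -0.81 in MOLM-13, -0.40 and -0.23 in OCI-AML3, 0.45 and 0.33 in MONO-MAC-6 and 0.34 and 0.26 in HL-60. In NOMO-1 the medians were 0.30 and 0.32, and in KASUMI-1 0.27 and 0.28. The matched genes lay further from 0 in 4 of these 6 lines, which was not tested. The 6 are the lines in which most of the set rose or fell. Elsewhere the medians with and without a match were -0.12 and 0.074 in F-36P and -0.14 and -0.009 in MV-4-11. They were -0.015 and -0.044 in NB-4 and 0.12 and 0.096 in THP-1.

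Before treatment the levels already differed between lines. The test over the 33 untreated libraries of 11 lines passed for 44 of 44 genes, where it passed for 99.4% of the 18130 genes tested, so a difference was no mark of the set. The ratio of the highest to the lowest line had a median of 2.65 over the 44 genes. It was smallest for ORC1, at 1.36, from 71.5 ± 1.31 CPM (SD, n = 3) in MONO-MAC-6 to 97.5 ± 2.93 CPM in MV-4-11, and largest for GINS2, at 4.60, from 18 CPM in MONO-MAC-6 to 82.8 CPM in MV-4-11. Per kilobase of annotated exon, PCNA had the highest median level over the lines, at 238 CPM per kb, from 115 in THP-1 to 454 in MOLM-13. MCM3, MCM7 and MCM2 followed, with medians of 143, 133 and 87.8 CPM per kb. The lowest were ORC4, PRIM2 and POLA1, with medians of 3.80, 4.83 and 5.48 CPM per kb. Exon length here is the union of all annotated exons of a gene, so genes with rarely used exons are set too low.

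**Figure D5:**
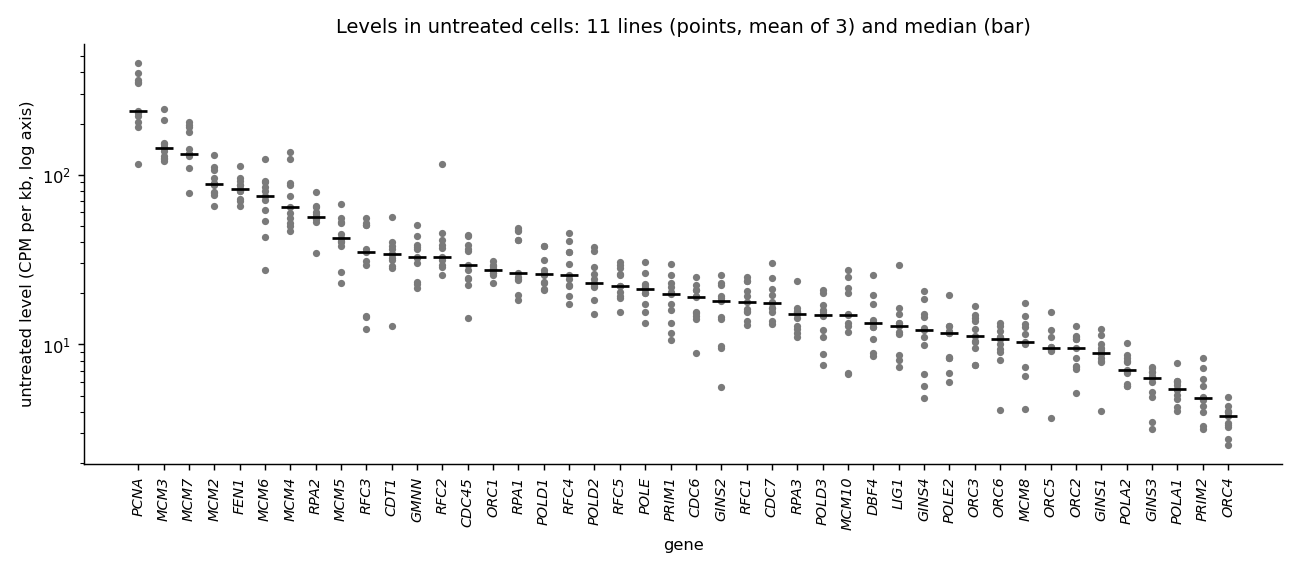
Level in untreated cells (vertical axis, CPM per kilobase of exon, log axis) of the 44 genes (horizontal axis, in falling order of the median), with 1 point per cell line (mean of 3 libraries, 11 lines) and a bar for the median. PCNA leads at 238 CPM per kb, and ORC4 is last at 3.80.

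Other genes of DNA replication moved mostly with the set in MOLM-13, NOMO-1 and MONO-MAC-6. Of all genes, 28.1% fell in MOLM-13 and 17.7% in OCI-AML3, and 28.8%, 31.8% and 17.5% rose in NOMO-1, MONO-MAC-6 and HL-60. Of 26 further fork genes (such as CLSPN, TIMELESS and TICRR), 23 fell and 1 rose in MOLM-13 (median -0.74), while 18 rose in NOMO-1 and 17 in MONO-MAC-6, with 2 and 4 falling (medians 0.34 and 0.31). Fewer of the 26 passed in OCI-AML3, where 8 fell and 2 rose (-0.23), and in HL-60, where 10 rose and 0 fell (0.25). Of 13 genes of nucleotide supply and chromatin assembly (such as RRM2, TYMS and CHAF1A), all 13 fell in MOLM-13 (median -0.79) and all 13 rose in MONO-MAC-6 (0.49), and 7 fell in OCI-AML3 (-0.34). Of 12 G1/S regulators, 10 fell in MOLM-13 (median -0.58), 10 rose in MONO-MAC-6 (0.74) and in NOMO-1 (0.68), and 9 rose in HL-60 (0.90). E2F1, one of them, rose in 6 lines, from 77.7 ± 2.88 to 179 ± 33.4 CPM (SD, n = 3) in HL-60 (log2 fold change 1.20, adjusted p = 1.49e-05), and fell in 3, from 46.3 ± 3.09 to 23.0 ± 3.87 CPM in MOLM-13 (-1.01, adjusted p = 5.76e-05).

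Mitotic genes fell in HL-60 and NOMO-1 more often than they rose, unlike the replication genes there. Of 18 G2/M genes, 18 fell in MOLM-13 (median -1.25), 15 in MV-4-11 (-0.45), 12 in THP-1 (-0.55), 11 in F-36P (-0.78), and 8 each in HL-60 (-0.26), NOMO-1 (-0.13) and OCI-AML3 (-0.41), with 1, 0, 0, 1, 2 and 0 rising in MV-4-11, THP-1, F-36P, HL-60, NOMO-1 and OCI-AML3. Of all genes, 28.1% fell in MOLM-13, 30.4% in MV-4-11, 16.0% in THP-1 and 25% in F-36P. The shares that fell were 15.0% in HL-60, 23.9% in NOMO-1 and 17.7% in OCI-AML3. The shares that rose were 33.5% in MV-4-11, 16.1% in THP-1, 35.0% in F-36P, 17.5% in HL-60, 28.8% in NOMO-1 and 22.4% in OCI-AML3. In MONO-MAC-6 7 G2/M genes rose and 6 fell (0.0030), against 31.8% and 30.5% of all genes. In NB-4 4 G2/M genes rose and 9 fell (-0.19), against 31.0% and 28.7% of all genes. KASUMI-1 was the line in which most of the G2/M genes rose, 12 of 18 with 1 falling (median 0.45). Of all genes, 31.5% rose and 28.6% fell there. TOP2A, which encodes the topoisomerase II alpha that etoposide poisons, rose there from 325 ± 60.7 to 707 ± 154 CPM (log2 fold change 1.12, adjusted p = 0.000403) and fell in MOLM-13, HL-60, THP-1 and MV-4-11. The 26 genes of the damage list, most of them targets of p53, had their highest medians in OCI-AML3 and MOLM-13, where the replication genes fell. These were 1.98 with 26 of 26 rising and 1.12 with 24 rising, where 22.4% and 28.1% of all genes rose. In the other 8 lines the median of the damage list was between 0.25 and 0.77. The next highest were MONO-MAC-6, at 0.77 with 22 rising, and NOMO-1, at 0.69 with 19 rising. Of all genes, 31.8% and 28.8% rose there, and most of the replication genes rose in both lines. The damage list was chosen from earlier results of these data and is not independent evidence, and its part in the change of the replication genes was not tested.

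In OCI-AML2, whose etoposide libraries the study discarded, 0 of 44 genes rose or fell, where 0.0221% of the 13604 genes tested rose and 0% fell. At an unadjusted p below 0.05, 1 of the 44 and 456 of all genes passed, and DESeq2 called 0 of the 44. The log2 fold changes of the set lay between -0.14 for MCM5 and 0.11 for PRIM2, with a median of -0.026. CDKN1A rose there from 45.8 ± 1.94 to 76.1 ± 3.54 CPM (log2 fold change 0.73, adjusted p = 0.000289).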

How the data were processed

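RNA-seq was made with a stranded mRNA kit from 11 AML cell lines, untreated or after 24 h of etoposide, with 3 libraries per group and 66 in all. The authors deposited raw counts of reads per gene, 1 file per library, made with STAR 2.5.3a on GRCh38.p7 with gencode release 25, and used edgeR 3.20.1 per line, according to the methods and the submitters' processing notes. Reads lay on 463 of 707 genes that an exon on the other strand covers from end to end, as counting by strand allows. The exons for this check came from a later gencode release than the counts, so it cannot settle whether reads were counted by strand.

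A set of 45 chromosome Y copies, all at 0 reads, was dropped, which left 57992 identifiers, of which 56948 were named from gencode release 44. Depth was 17997404 to 24101670 reads on genes per library. CPM, log2 fold changes and p-values were computed with edgeR 4.0.16 in R 4.3.3 (filterByExpr with min.count 10 and min.total.count 15, TMM, quasi-likelihood test, Benjamini-Hochberg adjustment over all genes tested). Each line was fitted alone, the 60 libraries of 10 lines together for differences between lines, and the 33 untreated libraries for levels before treatment. Scripts were tested on simulated data. Python 3.11.15, pandas 2.3.3 and matplotlib 3.10.9 served other steps. DESeq2 1.42.0, other scalings, filters, a replicate block, a stricter FDR and leaving out libraries were alternatives. Replicate numbers were taken to pair libraries where libraries of 1 number deviated together, with a correlation over 0.1 in all 3 pairs of a line. This held only in NB-4 (0.265, 0.220 and 0.152), and no label says that the numbers mark a shared day or batch.

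Values per library are given for the 4 genes that fell and the 4 that rose in the most lines (8 genes fell in 5 lines, a tie settled for ORC4 by the larger absolute mean log2 fold change over the 10 lines), for the largest fall and rise in each line, and for CDC6, CDT1, GMNN, MCM2, MCM5, ORC1 and PCNA in their lowest and highest line. Of other lists, TOP2A, CDKN1A and E2F1 were named. The genes and lists were chosen with earlier results of these data known. The design text calls the 3 libraries of a group biological replicates, and p-values measure the spread between them within 1 line. CPM per library are scaled within each line, and levels before treatment over the 33 untreated libraries. CPM of the cell type markers use plain library totals and did not come from edgeR.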

Additional observations from a re-analysis of the deposited data

Results flagged for a closer look

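The response to etoposide differed between the 10 lines for all 44 replication genes by the interaction test. Adjusted p-values were 3.1e-19 for CDC6, 1.77e-08 for CDT1, 0.000449 for DBF4, 2.88e-11 for GINS4, 2.25e-16 for GMNN, 1.3e-13 for MCM2 and 6.57e-14 for MCM5. They were 2.17e-23 for ORC1, 0.000111 for ORC2, 0.00894 for ORC4, 8.19e-17 for ORC6, 4.8e-09 for PCNA, 4.01e-12 for POLA2 and 1.56e-05 for POLD2. Since this test passed for 74.5% of all genes, passing it does not mark the replication genes.

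Tested line by line against the mean of the other 9, the counts of genes with a higher response were 28 in HL-60, 27 in MONO-MAC-6, 27 in NOMO-1, 24 in KASUMI-1, 14 in THP-1, 8 in NB-4, 2 in F-36P, 2 in OCI-AML3 and 1 in MV-4-11. The counts with a lower response were 40 in MOLM-13, 26 in OCI-AML3, 15 in F-36P, 7 in MV-4-11, 3 in THP-1, 2 in KASUMI-1 and 2 in NB-4. Each line serves in the mean against which the others are set, so these counts are not independent. Groups of 3 libraries were too small for a test of single libraries far from the others.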

How the results depend on the processing

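No gene named in a line passed the test in the opposite direction under any alternative run. The medians of F-36P, MV-4-11 and NB-4, which lie near 0, changed sign under some, as given below. Of 94 values of a named gene in a line, 75 kept their call under every alternative and 19 lost or gained it in at least 1. In MOLM-13 the fall of 42 to 44 genes held throughout. The cause of the changes below was not tested.

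Of the counts and medians per line, these moved. With the size factors of DESeq2, 5 genes rose in F-36P and 0 fell in THP-1, and with DESeq2 itself 5 rose in F-36P and 1 fell in THP-1. With totals alone, 16 rose and 7 fell in F-36P, 1 fell in HL-60, 4 in NB-4 and 0 in THP-1, and the medians became 0.260 in F-36P, 0.444 in KASUMI-1, 0.513 in MONO-MAC-6, 0.099 in MV-4-11, 0.256 in NB-4 and 0.403 in NOMO-1. Without a filter on low counts, 5 rose in F-36P and its median became -0.096. In 1 fit of the 10 lines, 13 rose in F-36P, 1 fell in HL-60, 15 rose and 1 fell in THP-1, and the median of MV-4-11 became 0.016. At an FDR below 0.01, 3 rose in F-36P, 1 fell in HL-60, 5 in NB-4 and 12 in OCI-AML3, and in THP-1 5 rose and 0 fell. With the replicate block, 5 rose in F-36P and 15 fell in OCI-AML3, lines that did not meet the rule for pairing. The block moved no other count per line by over 1.5 times.

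Of the counts of genes that differed from the other 9 lines, these moved. With the size factors of DESeq2, 7 were higher in F-36P. With totals alone, 8 were higher in F-36P, 13 in NB-4, 1 in OCI-AML3 and 7 in THP-1, and 1 was lower in KASUMI-1, 1 in NB-4 and 6 in THP-1. Without a filter, 1 was lower in KASUMI-1 and 1 in NB-4, and 1 was higher in OCI-AML3 and 8 in THP-1. With the replicate block, 1 was lower in KASUMI-1, 4 in MV-4-11 and 1 in NB-4, and 1 was higher in OCI-AML3. With F-36P left out of the fit, 1 was lower in HL-60 and 1 in NOMO-1, and 2 were higher in MV-4-11 and 1 in OCI-AML3.

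Leaving out 1 library at a time, the number of genes that rose ranged as 3 to 8 in F-36P, 18 to 29 in HL-60, 20 to 23 in KASUMI-1, 0 in MOLM-13, 32 to 33 in MONO-MAC-6, 11 to 14 in MV-4-11, 14 to 16 in NB-4, 25 to 31 in NOMO-1, 0 in OCI-AML2, 2 to 4 in OCI-AML3 and 6 to 21 in THP-1. The number that fell ranged as 11 to 17 in F-36P, 1 to 2 in HL-60, 3 to 6 in KASUMI-1, 42 to 44 in MOLM-13, 5 to 6 in MONO-MAC-6, 17 to 18 in MV-4-11, 5 to 14 in NB-4, 3 in NOMO-1, 0 in OCI-AML2, 14 to 26 in OCI-AML3 and 0 to 3 in THP-1. The median ranged as -0.148 to 0.054 in F-36P, 0.316 to 0.397 in HL-60, 0.246 to 0.310 in KASUMI-1, -0.943 to -0.858 in MOLM-13, 0.379 to 0.440 in MONO-MAC-6, -0.066 to -0.029 in MV-4-11, -0.035 to 0.090 in NB-4, 0.298 to 0.388 in NOMO-1, -0.040 to -0.028 in OCI-AML2, -0.312 to -0.261 in OCI-AML3 and 0.114 to 0.184 in THP-1.

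Leaving out 1 replicate number in every group, 19 to 21 genes rose and 13 to 14 fell on the mean over lines, 43 to 44 differed between lines and 44 differed before treatment. The number higher than in the other 9 lines ranged as 1 to 4 in F-36P, 15 to 28 in HL-60, 14 to 20 in KASUMI-1, 0 in MOLM-13, 20 in MONO-MAC-6, 1 in MV-4-11, 4 to 5 in NB-4, 19 to 22 in NOMO-1, 1 to 2 in OCI-AML3 and 7 to 11 in THP-1. The number lower ranged as 11 to 15 in F-36P, 0 in HL-60, 1 to 2 in KASUMI-1, 37 to 39 in MOLM-13, 0 in MONO-MAC-6, 1 to 5 in MV-4-11, 1 to 2 in NB-4, 0 to 1 in NOMO-1, 21 to 23 in OCI-AML3 and 1 to 2 in THP-1.

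No gene of the set had fewer than 259 reads in any library, so low depth did not keep any of them out of a test.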
